A study of Solanum lycopersicum with 6 samples.

Results

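GLK2, GLK1, APRR2 and SGR1 are 4 tomato genes that bear on whether a fruit keeps its chloroplasts or loses its chlorophyll. They were chosen by identifier (Solyc10g008160, Solyc07g053630, Solyc08g077230 and Solyc08g080090), and 4 of 4 have a row among the 8703 genes of the authors' deposited table. RNA was sequenced from equatorial fruit wall (pericarp) at 38 days after anthesis, in 3 libraries of transgenic jmj7 lines and 3 libraries of wild type (WT), both in the Ailsa Craig background and grown in 1 greenhouse regime. The labels do not say what was changed in the jmj7 lines, how many lines were used, or whether replicates were separate plants or fruits, so the p-values below measure only the spread between these libraries. By the series title the gene concerned codes for a histone demethylase, which takes methyl groups off histones, and the question is how it bears on ripening. The columns of the jmj7 libraries carry a prefix found in no sample label and were assigned to jmj7 as the group that is not WT, on which every direction below rests.

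GLK (GOLDEN2-LIKE) proteins are transcription factors that switch on nuclear genes for chlorophyll synthesis and light harvesting, and so build and keep up chloroplasts. In tomato, GLK2 is the copy that acts mainly in fruit, where it gives the dark green shoulder, and GLK1 acts mainly in leaves. SGR1, the STAY-GREEN protein altered in the tomato green-flesh mutant, starts chlorophyll breakdown by helping to remove its magnesium. APRR2 is known in tomato as a GLK-related factor linked to plastid number in fruit. When tomato fruit ripen, chloroplasts become chromoplasts, chlorophyll is lost and lycopene accumulates.

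The reference gene table pairs the symbols GLK2, GLK1 and SGR1 with genes on the chromosomes that the identifiers name (10, 7 and 8). It holds no symbol for APRR2, so that name for Solyc08g077230.3, on chromosome 8, could not be checked. In jmj7 pericarp both GLK genes were lower and both APRR2 and SGR1 were higher than in WT, and the libraries of the groups did not overlap for any of the 4. The table holds only genes that the authors had already called: of the 7622 that passed the low-count filter, edgeR's quasi-likelihood test called 7622, with 37.2% higher in jmj7 and 62.8% lower, and 99.7% had groups that did not overlap. That the 4 genes were called, or did not overlap, is therefore no result about them. The sizes and levels are what the table adds. With size factors re-estimated within the table, 3023 genes were called higher and 3368 lower, against 2837 and 4785 with the deposited size factors.

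GLK2 (Solyc10g008160.3), the GLK gene of green fruit, was close to undetected in jmj7. It had 14, 11 and 8 reads in the jmj7 libraries and 1555, 1117 and 1541 reads in the WT libraries. In FPKM, the fragments scaled for gene length and library total, these were 0.412, 0.453 and 0.317 in jmj7 and 62.4, 47.8 and 54.1 in WT. Every jmj7 library lay below 1 FPKM, and every WT library lay far above that level. As normalized counts (reads divided by the deposited size factor of a library), GLK2 averaged 12.6 ± 2.23 in jmj7 and 1187 ± 147 in WT (SD, n = 3 each). The log2 fold change was -6.54 ± 0.287 (SE, with an adjusted p of 1.28e-31 by edgeR). Pooled reads, divided by the summed deposited size factors of each group, were 94.4-fold lower in jmj7. The exact 95% counting interval ran from 67.1-fold to 137-fold, and such intervals cover only the error of counting. Of the tested genes, 8.08% were lower by at least 64-fold, and GLK2 was number 520 counted from the lowest log2 fold change. By mean FPKM it ranked 5613 of 8703 genes in jmj7 and 890 of 8703 in WT. In pericarp taken as bulk tissue, fewer cells that express a gene and less RNA per cell cannot be told apart.

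GLK1 (Solyc07g053630.3), the related factor known mainly from leaves, was a low-level gene in both groups. Its libraries held 19, 4 and 5 reads in jmj7 and 48, 24 and 51 reads in WT. The FPKM values were 0.334, 0.0985 and 0.119 in jmj7, against 1.15, 0.614 and 1.07 in WT. The jmj7 replicate 1 library stood above the other 2 of its group, and WT replicate 2 stood below the other 2 of WT. Counting error alone was wide at these depths: as normalized counts, the exact 95% Poisson interval ran from 10.7 to 27.8 for jmj7 replicate 1 and from 14.4 to 33.4 for WT replicate 2, and these 2 intervals overlap. The log2 fold change was -1.70 ± 0.400 (SE, with an adjusted p of 6.08e-05 by edgeR). Pooled reads, scaled in the same way as for GLK2, were 3.25-fold lower in jmj7, and the mean of normalized counts was 3.49-fold lower. Without jmj7 replicate 1 the log2 fold change was -2.55 ± 0.582. The median over all genes tested was -1.43, and GLK1 was number 3375 of 7622 from the lowest. With size factors re-estimated within the table, its log2 fold change was -0.47 ± 0.391 and the call was lost (adjusted p of 0.243 by edgeR).

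APRR2 (Solyc08g077230.3 under that unchecked name) moved the other way from both GLK genes. Its normalized counts were 806, 815 and 734 in jmj7 and 52.5, 37.5 and 39.7 in WT. All the jmj7 libraries lay above 700 and all the WT libraries below 60. The FPKM values were 13.7, 13.9 and 12.5 in jmj7, against 1.33, 0.931 and 0.992 in WT. The mean of normalized counts was 18.2-fold higher in jmj7, on the log2 scale 4.18 ± 0.137 (SE, with an adjusted p of 6.92e-29 by edgeR), and 4.7% of the tested genes were higher by at least 16-fold. In rank of mean FPKM it stood at 2105 in jmj7 and 6552 in WT.

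SGR1 (Solyc08g080090.3), which acts at the first step of chlorophyll loss, had the highest FPKM of the 4 genes in jmj7. Its libraries held 35918, 26424 and 27666 reads in jmj7 and 454, 360 and 412 in WT. The FPKM values were 981, 1010.1 and 1018 in jmj7, against 16.9, 14.3 and 13.4 in WT. SGR1 was thus already present in each WT library, at an FPKM above those of APRR2 and GLK1 in the same library. The mean of normalized counts was 99.3-fold higher in jmj7, on the log2 scale 6.64 ± 0.0550 (SE, with an adjusted p of 1.90e-45 by edgeR). Replicates were close, with a coefficient of variation of 2.03% in jmj7 and 11.3% in WT. Of the tested genes 2.37% were higher by at least 64-fold, and SGR1 was number 144 from the highest log2 fold change. By mean FPKM it ranked 57 of 8703 genes in jmj7 and 2581 in WT.

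The authors' deposited table gives log2 fold changes of -6.56 for GLK2, -1.75 for GLK1, 4.18 for APRR2 and 6.64 for SGR1, from the same libraries.

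**Figure D1:**
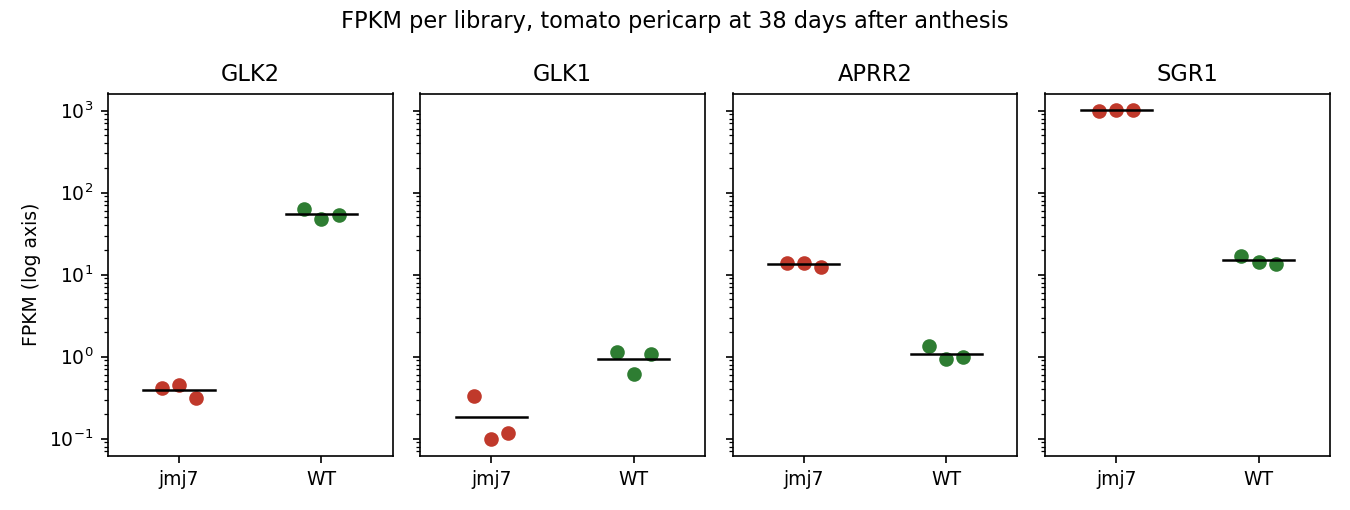
FPKM (log axis) of GLK2, GLK1, APRR2 and SGR1 in each of 3 jmj7 and 3 WT libraries, with the group mean as a bar. GLK2 averaged 0.394 FPKM in jmj7 and 54.8 in WT, SGR1 averaged 1003 in jmj7 and 14.9 in WT, and no gene's groups overlap.

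Ratios between genes within a library do not depend on how the libraries are scaled against each other. The FPKM ratio of SGR1 to GLK2, chlorophyll loss set beside chloroplast upkeep, was 2381, 2229.8 and 3210.1 in the jmj7 libraries and 0.271, 0.299 and 0.248 in the WT libraries. SGR1 thus exceeded GLK2 in every jmj7 library, and GLK2 exceeded SGR1 in every WT library. On the log2 scale the ratio averaged 11.33 ± 0.28 in jmj7 and -1.88 ± 0.135 in WT (SD, n = 3 each), a difference of 13.21. The exact 2-sided permutation p was 0.1, the smallest that 3 against 3 libraries can give, and it cannot pass 0.05. SGR1 and GLK2 each separated the groups, in opposite directions, so their ratio had to separate them and this p was fixed beforehand. The same holds for the ratio of APRR2 to GLK2 given below, so nothing is read from the p of either ratio. All 4 ratios compared had a permutation p of 0.1, also after adjustment over the 4.

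GLK2 stood further above GLK1 in WT than in jmj7. The FPKM ratio of GLK2 to GLK1 was 1.23, 4.60 and 2.68 in the jmj7 libraries and 54.2, 77.8 and 50.5 in the WT libraries, with no overlap. The log2 ratio averaged 1.31 ± 0.955 in jmj7 and 5.90 ± 0.335 in WT (SD, n = 3 each), a difference of -4.59 (exact 2-sided permutation p = 0.1). Added together, the FPKM of both genes came to 0.746, 0.551 and 0.436 in jmj7 and 63.5, 48.4 and 55.1 in WT. GLK2 made up 55.2%, 82.1% and 72.8% of that sum in jmj7 and 98.2%, 98.7% and 98.1% in WT. In jmj7 the share rests on 33 reads of GLK2 and 28 reads of GLK1 over 3 libraries. How reads shared by related copies such as GLK1 and GLK2 were assigned, and whether strand was used, is not stated in the labels or the table.

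A further pair of ratios was chosen after the values had been seen. APRR2 exceeded GLK2 in FPKM 33.4, 30.6 and 39.4 times in the jmj7 libraries, while in the WT libraries the ratio was 0.0213, 0.0195 and 0.0183. PSY1, the phytoene synthase of ripening fruit, encodes an enzyme that the tomato SGR1 protein is known to bind. Its FPKM stood at 5.58, 5.73 and 5.70 times that of SGR1 in jmj7 and 4.54, 4.85 and 5.30 times in WT. For PSY1 itself the log2 fold change was 6.85 ± 0.0366 (SE, with an adjusted p of 6.67e-48 by edgeR). The log2 ratio of PSY1 to SGR1 differed between jmj7 and WT by 0.22, with 2.50 ± 0.0196 in jmj7 and 2.29 ± 0.112 in WT (SD, n = 3 each; exact 2-sided permutation p = 0.1). Of the 4 ratios it moved least.

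**Figure D2:**
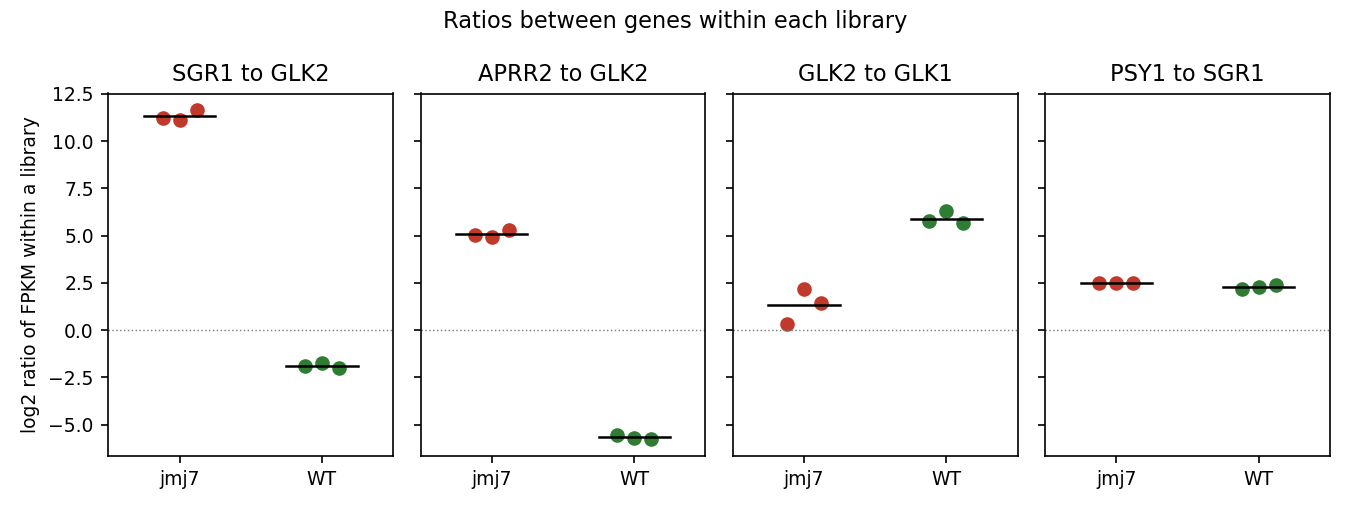
Log2 ratio of FPKM within each library for SGR1 to GLK2, APRR2 to GLK2, GLK2 to GLK1 and PSY1 to SGR1, in 3 jmj7 and 3 WT libraries, with group means as bars. The ratio of SGR1 to GLK2 averages 11.33 in jmj7 and -1.88 in WT, while that of PSY1 to SGR1 averages 2.50 in jmj7 and 2.29 in WT.

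Regulators that act on the GLK genes or on plastids moved in both directions. Of 10 with a checked symbol, 2 have no row, 1 was below the low-count filter, 5 were called higher and 2 lower in jmj7. Over all genes tested 37.2% were higher and 62.8% lower. Scaled by the reads in the table's genes, 2 of the regulators were called higher and 3 lower, so nothing is read from the split. With the deposited size factors the median log2 fold change of the regulators was 1.03, against -1.43 over all genes tested. TKN4, a KNOX homeobox factor known to raise GLK2 transcription in tomato fruit, fell to 26.4 ± 5.68 normalized counts in jmj7, against 197.6 ± 13.1 in WT (SD, n = 3 each; log2 fold change -2.92 ± 0.21 SE). TKN2, a related KNOX factor below the filter, had 0 reads over the jmj7 libraries and 32 over the WT libraries. Set against 3 reads over the jmj7 group, the 1-sided limit that a count of 0 allows, TKN2 was at least 7.88-fold lower with the WT reads taken as exact. The exact 95% counting bound is 2-sided, so stricter, and also takes in the error of the WT reads. By that bound TKN2 was at least 6.05-fold lower. Both values rest on the deposited size factors. ARF4, an auxin response factor that in tomato is known to hold down GLK1, fell to 1028 ± 20.2 normalized counts in jmj7, against 4273 ± 67.6 in WT.

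DDB1, DET1 and CUL4 are subunits of a ubiquitin ligase that limits plastid build-up in tomato fruit and marks GLK2 protein for destruction. DDB1 rose 2.80-fold, with a log2 fold change of 1.49 ± 0.0397 (SE), or 0.45 when scaled by the reads in the table's genes. DET1 and CUL4 rose 2.03-fold each with the deposited size factors, but turned to -0.013 and -0.018 (log2 fold change) under that scaling. HY5, a light-signalling factor, rose 2.27-fold, and lost its call there (log2 fold change 0.14 ± 0.072). TAGL1, a MADS-box factor of fruit development and ripening, had 6005 ± 59.4 normalized counts in jmj7 and 2763 ± 74.6 in WT, a log2 fold change of 1.12 ± 0.0376 (SE), or 0.079 ± 0.0377 under the same scaling (adjusted p of 0.0480 by edgeR).

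Genes of the chloroplast machinery were lower, among them CAB genes, a family that GLK factors are known to switch on in Arabidopsis. Of 8 chloroplast protein genes with a checked symbol, 8 fell in jmj7, where 62.8% of all genes tested were lower. Their median log2 fold change was -6.89, against -1.43 over all genes tested. The 8 encode chlorophyll a/b-binding proteins (CAB genes) and the small subunit of Rubisco (RBCS genes). CAB7 changed least, with 3106 ± 130 normalized counts in jmj7 and 30293 ± 675 in WT. CAB6A had 12.1 ± 3.76 in jmj7 and 3144 ± 41.1 in WT, a log2 fold change of -7.99 ± 0.255 (SE, with an adjusted p of 1.30e-39 by edgeR), larger than that of GLK2. CAB3C had 3 reads over the jmj7 libraries and 33995 over the WT libraries. Divided by the summed deposited size factors of each group, these were 8376-fold lower in jmj7, with an exact 95% counting interval from 2866-fold to 40619-fold. Both families hold near-identical copies, so reads of single members are uncertain. The summed normalized counts of the 8 genes ran from 4270.03 to 4539 in jmj7 libraries and from 120470.0 to 126904 in WT libraries.

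The pathways of chlorophyll itself could be followed only in part. POR3, a protochlorophyllide reductase gene of chlorophyll synthesis, fell to 45.6 ± 7.07 normalized counts in jmj7, against 1747 ± 70.2 in WT (SD, n = 3 each; log2 fold change -5.28 ± 0.138 SE, with an adjusted p of 5.86e-35 by edgeR). The other 2 checked genes of that pathway have no row. A further 14 identifiers listed for chlorophyll synthesis have no symbol in the reference and were counted apart, unnamed: 10 have no row, 1 was called higher and 3 lower, with a median log2 fold change of -3.00. Of 9 such unchecked identifiers listed for chlorophyll breakdown, 4 have no row, 1 was below the filter, 3 were called higher and 1 lower, with a median of 1.32. Over all genes tested 37.2% were higher and 62.8% lower, with a median of -1.43, so nothing is read from the split of 4 identifiers in either list. Both checked senescence regulators rose, while of 3 unchecked identifiers listed with them 1 has no row, 1 was called higher and 1 lower. NAP1, a NAC factor, had 1171 ± 87.4 normalized counts in jmj7 and 169 ± 21.4 in WT, a log2 fold change of 2.79 ± 0.0854 (SE). NAP2, a NAC factor known in tomato leaves to act on SGR1, had 85.8 ± 14.5 in jmj7 and 40.7 ± 8.46 in WT, and lost its call when scaled by the reads in the table's genes (log2 fold change 0.041).

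**Figure D3:**
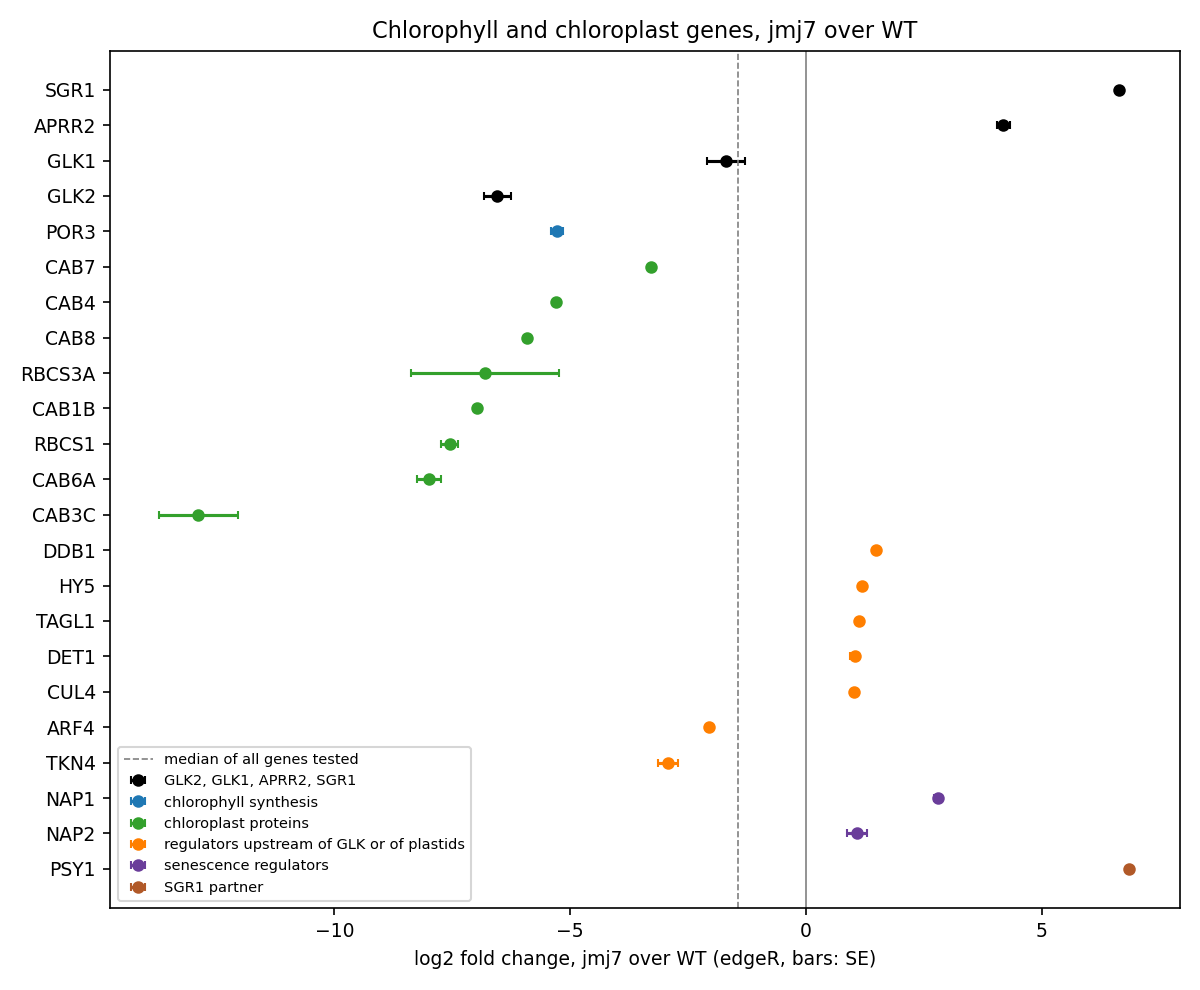
Log2 fold change (jmj7 over WT, edgeR, bars show the SE) of the 4 genes and of tested genes with a checked symbol, coloured by list. The lists drawn are chlorophyll synthesis, chloroplast proteins, regulators upstream of GLK or of plastids, senescence regulators and PSY1. Fruit tissue and epidermis markers are not drawn, among them RIN at 10.63, PG2A at 17.64, FUL1 at 4.69 and CD1 at -14.52. The dashed line is the median of all genes tested, at -1.43. SGR1 at 6.64 lies beside PSY1 at 6.85, GLK2 at -6.54 lies among the chloroplast protein genes, and GLK1 at -1.70 lies near the dashed line.

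Other markers moved with the groups. Of 3 checked markers of fruit tissue and ripening, 3 rose, where 37.2% of all genes tested were higher in jmj7. RIN averaged 25689 ± 687 normalized counts in jmj7 and 15.8 ± 4.16 in WT (SD, n = 3 each). PG2A averaged 661085 ± 23253 in jmj7 and 3.01 ± 1.41 in WT, and FUL1 15772 ± 635 in jmj7 and 614 ± 51.5 in WT. The summed normalized counts of the 3 markers ran from 674425 to 717068 in jmj7 libraries and from 581 to 668 in WT libraries. Most of the sum was PG2A in jmj7 and FUL1 in WT. Both groups have the same age, so a difference in ripening stage and other effects of the genotype cannot be told apart for any of the 4 genes. Of 4 checked epidermis markers, 3 have no row, and CD1, a cutin synthase gene, had 0 reads in jmj7 and from 2802 to 2949 normalized counts in WT libraries. The part of these markers in the results above was not tested. Reads in the table's genes came to between 10937853 and 15254146 in jmj7 and between 7508105 and 9155968 in WT. Between 25.9% and 26.4% of those reads in jmj7, and between 12.2% and 12.5% in WT, fell in the 10 genes with most reads.

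The genes nearest to each of the 4 in pattern were found by Euclidean distance between centred log2(normalized count + 1) values over the 6 libraries. For SGR1 this was Solyc07g052960.2 at a distance of 0.112, with 9163 ± 161 normalized counts in jmj7 and 86.2 ± 8.60 in WT. PSY1 lay at 0.312 from SGR1, beyond the fifth nearest at 0.274. For APRR2 it was Solyc10g080880.2 at 0.201, with 758 ± 23.1 in jmj7 and 41.4 ± 8.93 in WT. For GLK2 it was Solyc08g067030.3 at 0.356, with 76.7 ± 13.8 in jmj7 and 5973 ± 67.7 in WT. GLK1, with its scattered low counts, had its nearest gene, Solyc01g009230.3, at 0.597. Within a distance of 1 lay 66 genes for SGR1, 174 for APRR2, 138 for GLK2 and 40 for GLK1. As 99.7% of tested genes had groups that did not overlap, this distance mostly follows the size of the fold change. These counts therefore show only that none of the 4 fold sizes stood alone. The sources used here give these nearest identifiers no name. Within 100 locus numbers on the same chromosome, GLK2 had 6 other rows, of which 1 was higher and 5 lower in jmj7. SGR1 had 10, of which 1 was higher and 9 lower. For GLK1 3 of 8 were higher, and for APRR2 3 of 7. Over the whole table, without the low-count filter, 3087 rows were higher and 5616 lower, and with so few rows in each window nothing is read from these counts.

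Library scaling moved all 4 fold changes together. The FPKM values imply total depths, relative to WT replicate 3, of 1.19, 0.852 and 0.885 for the jmj7 libraries and 0.875, 0.820 and 1 for the WT libraries. The deposited size factors were 1.07, 0.759 and 0.79 for jmj7 and 1.16, 1.07 and 1.31 for WT. On the FPKM scale each jmj7 over WT fold is therefore lower by 0.56 (log2): by mean FPKM, SGR1 was 67.4-fold and APRR2 12.3-fold higher in jmj7, and GLK2 was 139-fold and GLK1 5.15-fold lower. Across 5 scalings the log2 fold change ran from 5.60 to 7.86 for SGR1, from 3.14 to 5.41 for APRR2, from -7.58 to -5.32 for GLK2 and from -2.73 to -0.47 for GLK1.

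**Figure D4:**
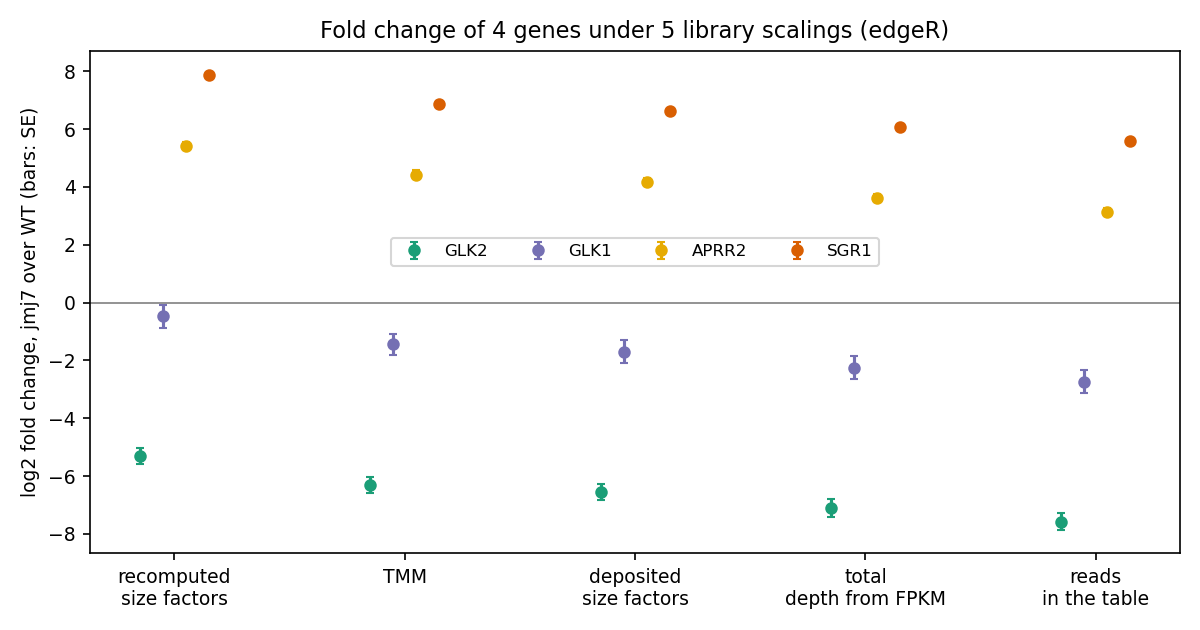
Log2 fold change (jmj7 over WT, edgeR, bars show the SE) of GLK2, GLK1, APRR2 and SGR1 under 5 ways to scale the libraries. The 4 genes shift in parallel, and GLK1 comes closest to 0, at -0.47 with size factors re-estimated within the table.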

How the data were processed

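HISAT2 is the tool named in the submitters' processing notes. Not given in the sources used here are its version and the genome build, counter and strandedness behind the counts. Deposited by the authors were a table's read counts, FPKM values, and a normalized signal in which each library's reads are divided by its size factor. The table also holds the authors' log2 fold changes with p-values, and its genes all have an absolute log2 fold change of at least 1.00 and p of at most 0.0499. The counts went into edgeR 4.0.16 under R 4.3.3 (quasi-likelihood fit and test with glmQLFit and glmQLFTest, offsets from the deposited size factors, filterByExpr with a minimum count of 10, Benjamini-Hochberg adjusted p under 0.05 over all 7622 genes tested). The fit was also run on simulated data in which few genes changed, and by small folds. That setting differs from a table of called genes, so nothing is read from it here. Since the table holds called genes only, adjusted p-values do not control false calls over the genome. Alternatives used DESeq2 1.42.0 and, on log2(FPKM + 1) and log2(FPKM + 0.1), limma 3.58.1. Ratios used exact permutation tests (scipy 1.17.1). An SE is the Wald error of the fit, at least the counting error, and an SD is over 3 libraries. Members and lists were chosen with earlier results of these data known. A listed symbol was used where the reference gene table (assembly SLM_r2.1) has it on the chromosome the identifier names and in compatible order, within 0.5 Mb. The rule for named genes was the 4 genes, checked list members, and for each of the 4 genes the 5 nearest in pattern, of which the first is printed. No sequence was used here.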

Additional observations from a re-analysis of the deposited data

How the results depend on the processing

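Of 63 values of the 4 fold changes under alternatives, 62 kept their direction and call. The exception was GLK1 with size factors re-estimated within the table, at -0.47; the cause was not tested, and that scaling moves the log2 ratio of scaled reads, jmj7 over WT, by 1.23, against 0.24 for TMM, -0.56 for the depth implied by FPKM and -1.04 for reads in the table's genes. Fitted fold changes moved less where a group had few or no reads: CD1 was -14.52 with the deposited factors, -14.12 with re-estimated factors and -15.06 with reads in the table's genes. The last scaling turned DET1 to -0.013 and CUL4 to -0.018, and left 2 higher genes among the upstream regulators and 1 among the senescence regulators. Leaving out each library in turn gave ranges from -6.63 to -6.43 for GLK2, -2.55 to -1.43 for GLK1, 4.10 to 4.34 for APRR2 and 6.56 to 6.73 for SGR1. With a minimum count of 50, GLK1 was not tested. The depth implied by FPKM and the ratios with APRR2 and PSY1 were added after the data had been seen. Same-numbered libraries did not deviate together (correlations from -0.0082 to 0.023, against -0.031 to 0.040 for differently numbered libraries). With 3 libraries per group this cannot show whether the samples were paired, and the labels do not say. With the replicate block, GLK2 was -6.56 and GLK1 -1.79, and 2837 genes were higher and 4785 lower. All 32 ratios under alternatives kept their direction, but part of that was fixed beforehand. With normalized counts, size factor and gene length cancel in the difference between groups. The ratios of SGR1 to GLK2 and APRR2 to GLK2 could not turn under any of the alternatives, since their genes moved in opposite directions without overlap. Read depth limits GLK2 and GLK1 in jmj7.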
